A study of Homo sapiens with 8 samples.

Results

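The adrenergic core transcription factors PHOX2A, HAND1, HAND2, GATA2, GATA3, ISL1, TBX2 and MEIS2 were examined in neuroblastoma cells exposed for 6 h to CR31B. They are the rows of the deposited count table that carry these 8 symbols, 8 of 58787 gene identifiers, taken by symbol with no threshold on a measured value. The set was, however, chosen with earlier results of these data known. The cells were IMR32, an established human neuroblastoma line with amplified MYCN, which the labels give as WT in genotype, neuroblast in cell type and brain in tissue. Cells received CR31B at its IC50, a rocaglate that blocks the RNA helicase eIF4A, or the vehicle, 0.1% DMSO, with 4 libraries in each group that the series describes as biological replicates. Polyadenylated RNA was sequenced, per the labels, although they also name a small RNA library kit. Both replicate 1 libraries were run paired-end and replicates 2 to 4 single-end. The series used here holds a single line, so nothing in these data speaks to other neuroblastomas.

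Neuroblastoma arises from the sympathetic lineage of the neural crest. Its cells occur in an adrenergic state and a mesenchymal state, each held by a set of lineage transcription factors that bind their own and each other's enhancers. In the sympathetic lineage, homeodomain, GATA zinc finger and basic helix-loop-helix (bHLH) factors of this set switch on the enzymes and transporters that make and store noradrenaline. eIF4A unwinds structured RNA at the start of messages during translation, and RNA sequencing measures the amount of message, not its translation.

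Replicate 1 stood apart from the other libraries before any gene was singled out. On the first principal component of log2 CPM (CPM are read counts scaled to a common library total, here by TMM) over all tested genes (51.8% of the variance), the single-end CR31B libraries lay between 19.0 and 28.95 and the single-end DMSO libraries between -29.4 and -25.8. The paired-end library labelled CR31B lay at -26.4 and the paired-end library labelled DMSO at 32.0, each on the side of the opposite label. No label was changed. The members are described over all 8 libraries, over the 6 single-end libraries and in replicate 1 alone, and the other genes mainly over the 6 single-end libraries. Library totals ran from 43687828 to 64715535 counts. The lowest count of any member in any library was 1515, for MEIS2 in DMSO replicate 4, and the highest was 78509, for HAND2 in CR31B replicate 3.

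Markers of sympathetic neuroblasts were present in all 8 libraries, although TH, the first enzyme of catecholamine synthesis, was nearly silent at 1.77 to 3.03 CPM. The 8 neuroblast markers summed to between 1057 and 1246 CPM in the CR31B libraries and to between 1115 and 1287 CPM in the DMSO libraries. Of 6 Schwann cell markers, 4 had any count, SOX10 and CDH19 were at 0 in every library, and the sum was 3.83 to 6.25 CPM with CR31B and 3.02 to 8.54 CPM with DMSO. Of 6 endothelial and blood markers, 4 had any count, CD68 and HBB were at 0, and the sum was 1.62 to 2.98 CPM with CR31B and 1.08 to 3.37 CPM with DMSO. All 7 fibroblast markers had counts, with sums of 60.1 to 119 CPM with CR31B and 66.8 to 89.7 CPM with DMSO. Most of that sum came from PDGFRA and COL1A1, and DCN did not exceed 0.12 CPM. The part of these markers in the results below was not tested.

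Sequence upstream of the start was read for the members from RefSeq (build GRCh38.p14), where 7 of the 8 members had an entry. The sequences below are the 250 bases before the first listed start of 3 members whose message changed in abundance, written 5′ to 3′ on the gene's own strand. They are shown so that letters bound by the families in this set can be seen in place. Capitals mark every match, on either strand, to GATAA (the GATA factors' core), CANNTG (the E-box of bHLH proteins), TAATTA (a homeodomain core) and TGACAG (the MEIS core). The HAND2 window is chr4:173530230-173530479 on the minus strand, the GATA3 window is chr10:8045083-8045332 on the plus strand, and the GATA2 window is chr3:128493202-128493451 on the minus strand.
HAND2: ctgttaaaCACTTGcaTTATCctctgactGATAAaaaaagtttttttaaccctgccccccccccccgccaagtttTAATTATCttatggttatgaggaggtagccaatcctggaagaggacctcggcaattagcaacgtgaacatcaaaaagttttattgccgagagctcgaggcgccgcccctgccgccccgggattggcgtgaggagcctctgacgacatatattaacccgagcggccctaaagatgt
GATA3: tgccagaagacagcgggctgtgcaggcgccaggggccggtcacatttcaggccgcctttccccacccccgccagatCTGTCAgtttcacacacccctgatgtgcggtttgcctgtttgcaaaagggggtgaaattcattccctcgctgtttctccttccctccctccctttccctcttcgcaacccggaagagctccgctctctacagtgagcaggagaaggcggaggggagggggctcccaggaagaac
GATA2: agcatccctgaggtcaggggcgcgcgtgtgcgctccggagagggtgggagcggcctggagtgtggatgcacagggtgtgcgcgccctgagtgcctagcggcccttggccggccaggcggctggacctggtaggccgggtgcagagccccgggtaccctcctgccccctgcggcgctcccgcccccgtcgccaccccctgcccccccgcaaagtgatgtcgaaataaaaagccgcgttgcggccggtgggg

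The HAND2 window held 3 GATAA matches, 1 CANNTG match and 1 TAATTA match, and the TAATTA match overlapped the third GATAA match in the run TAATTATC. The first GATA3 window held 1 TGACAG match on the opposite strand, and the first GATA2 window held none of the 4 motifs. GATA3 had 6 listed starts and GATA2 had 2, and the printed windows precede the most upstream of them. Which start these cells use was not measured in the files used here. Over all 14 windows of the 7 members, GATAA occurred in 4 windows, CANNTG in 5, TAATTA in 1 and TGACAG in 2. In the same order, these windows belonged to 4, 4, 1 and 1 members. Among 35116 RefSeq windows of the same length, 20.4% held GATAA, 61.8% CANNTG, 4.35% TAATTA and 13.03% TGACAG. A match is a run of letters and not a binding site, and binding was not measured in the files used here. The HAND2 window also overlaps that of a second gene: HAND2-AS1, a noncoding RNA read from the other strand, has a start 229 bases away, and 228 bases of the HAND2 window lie in the window of that start. GATA3 has such an overlap too, at its listed start 4 (chr10:8053391-8053640). The window of start 3 of GATA3-AS1, a noncoding RNA on the minus strand, is chr10:8053423-8053672.

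In the single-end libraries the 8 factors did not move as a block. GATA3, MEIS2, TBX2, HAND2, GATA2 and ISL1 rose with CR31B, PHOX2A fell, and HAND1 did not pass the test. The rise ran from 3.43-fold for GATA3 to 1.23-fold for ISL1, and PHOX2A was 1.25-fold lower. In this comparison 6 members passed an adjusted p of 0.05 upward, where 23.8% of all 16696 tested genes did so, and 1 passed downward, where 17.6% did (edgeR quasi-likelihood test, Benjamini-Hochberg adjustment over all tested genes; 41.3% called in either direction). The median log2 fold change was 0.85 over the members and -0.01 over all tested genes. With so large a share of all genes called, a call by itself sets a member little apart. Over all 8 libraries as labelled, 0 of the 8 members were called, and neither was any of the 16518 genes tested (percent called 0). The members' log2 fold changes over all 8 libraries were 1.03 for GATA3, 0.74 for MEIS2, 0.70 for TBX2, 0.52 for HAND2, 0.40 for GATA2, 0.16 for ISL1, -0.0015 for HAND1 and -0.16 for PHOX2A. At an unadjusted p under 0.05, edgeR gave 205 genes there, DESeq2 263 and limma voom 219, and both other tools also gave 0 after adjustment. In bulk RNA, fewer cells of a kind and less RNA per cell cannot be told apart.

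**Figure D1:**
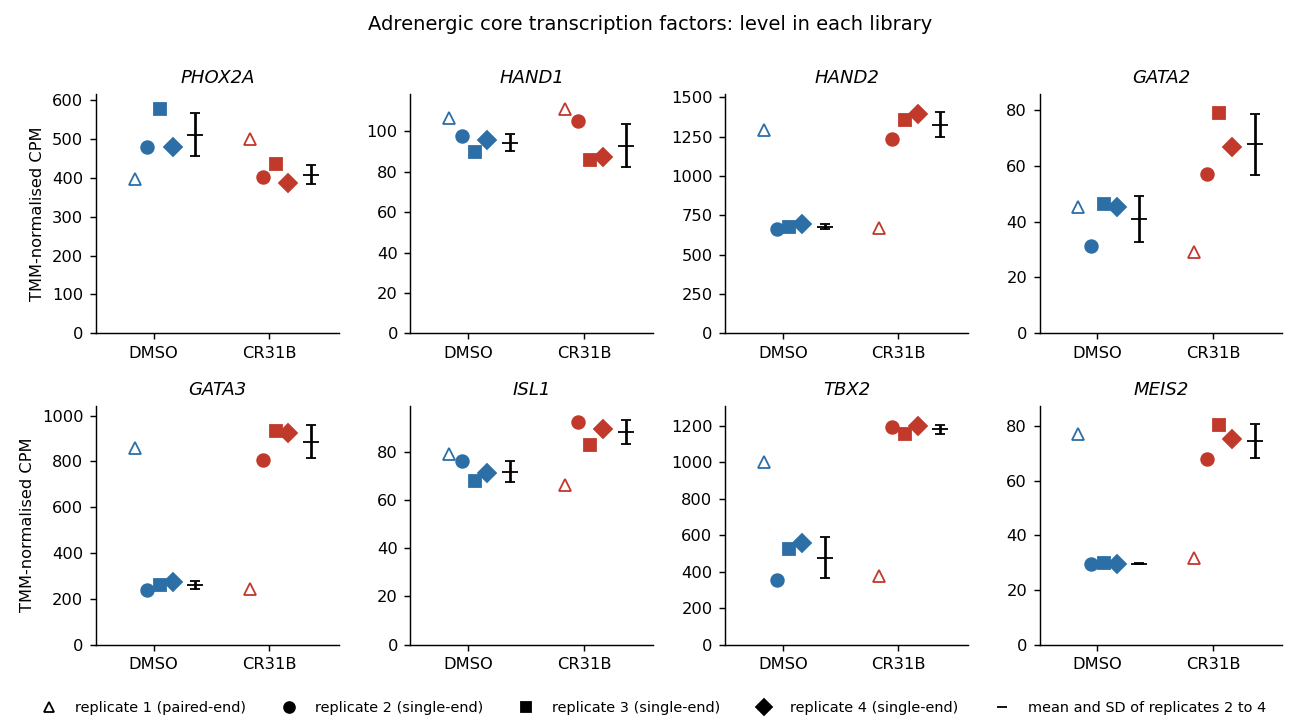
Levels of the 8 factors in each library, as TMM-scaled CPM on linear axes that start at 0, for DMSO (blue) and CR31B (red), with open marks for the paired-end replicate 1, filled marks for single-end replicates 2 to 4, and black bars for the mean and SD of the filled marks. GATA3, MEIS2, TBX2 and HAND2 separate widely between the filled groups, and the open marks of each lie nearer to the filled marks of the opposite label.

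GATA3 and GATA2 are zinc finger factors that bind the same core sequence, and GATA3 is needed for sympathetic neurons to form. GATA3 (ENSG00000107485, chr10:8045378-8075203, plus strand, 6 exons in the main transcript; this and all gene positions are GRCh38, GENCODE release 29) stood at 241, 804, 932 and 923 CPM in CR31B replicates 1 to 4 and at 857, 240, 262 and 275 CPM in DMSO replicates 1 to 4. The 3 single-end CR31B libraries were all far above the 3 single-end DMSO libraries, and the replicate 1 libraries held the opposite order. The single-end means were 886 ± 71.6 and 259 ± 17.8 CPM (SD, n = 3 each), a log2 fold change of 1.78 ± 0.074 (SE; edgeR, Benjamini-Hochberg adjusted p = 5.07e-07). Over all 8 libraries the log2 fold change was 1.03 ± 0.59 (SE; edgeR, Benjamini-Hochberg adjusted p = 0.707).

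GATA2 (ENSG00000179348, chr3:128479427-128493185, minus strand, 6 exons in the main transcript) was far scarcer, at 29.3, 57.0, 79.1 and 66.9 CPM in CR31B replicates 1 to 4 and 45.3, 31.3, 46.2 and 45.3 CPM in DMSO replicates 1 to 4. Replicate 2 was the lowest of the single-end libraries in both groups, and the single-end groups did not overlap. In the single-end libraries the means were 67.6 ± 11.04 and 40.9 ± 8.38 CPM (SD, n = 3 each), 1.66-fold higher with CR31B, a log2 fold change of 0.73 ± 0.15 (SE; edgeR, Benjamini-Hochberg adjusted p = 0.00284). GATA2 differed from GATA3 in replicate 1: the DMSO library, at 45.3 CPM, lay inside the range of the single-end DMSO libraries and not at the level of the CR31B libraries.

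HAND2 and HAND1 are bHLH factors that bind E-boxes together with E proteins, and HAND2 maintains the noradrenergic program of sympathetic neurons. HAND2 (ENSG00000164107, chr4:173524969-173530229, minus strand, 2 exons in the main transcript) stood at 672, 1236, 1355 and 1393 CPM in CR31B replicates 1 to 4 and at 1294, 661, 678 and 695 CPM in DMSO replicates 1 to 4. The single-end DMSO values were tightly grouped, every single-end CR31B value was higher, and replicate 1 again had the opposite order. Means over the single-end libraries were 1328 ± 82.3 and 678 ± 16.6 CPM (SD, n = 3 each), 1.96-fold higher, a log2 fold change of 0.97 ± 0.059 (SE; edgeR, Benjamini-Hochberg adjusted p = 1.76e-06). Over all 8 libraries it was 0.52 ± 0.30 (SE; edgeR, Benjamini-Hochberg adjusted p = 0.707). Exons of HAND2-AS1 on the other strand cover 24.1% of the HAND2 exon bases, and reads of that stretch could be told apart only if the counting used strand. The name of the deposited table holds the word reverse, which may refer to strand, and no label or header states the setting.

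HAND1 (ENSG00000113196, chr5:154474972-154478264, minus strand, 2 exons) was expressed at 111, 105, 85.8 and 87.5 CPM in CR31B replicates 1 to 4 and at 107, 97.4, 89.6 and 95.9 CPM in DMSO replicates 1 to 4. The groups overlapped, and the highest value of each group was in replicate 1. The single-end groups averaged 92.8 ± 10.7 and 94.3 ± 4.17 CPM (SD, n = 3 each), a log2 fold change of -0.02 ± 0.077 (SE; edgeR, Benjamini-Hochberg adjusted p = 0.853), whose sign turned to 0.08 with GC and length offsets. HAND1 was the only member with no call in any single-end fit run.

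TBX2, a T-box factor that mostly represses its targets, had the least even single-end DMSO values of the members that rose. TBX2 (ENSG00000121068, chr17:61399896-61409466, plus strand, 7 exons in the main transcript) stood at 375, 1191, 1152 and 1197 CPM in CR31B replicates 1 to 4 and at 1003, 351, 522 and 557 CPM in DMSO replicates 1 to 4. The 3 single-end CR31B libraries lay close together, whereas DMSO replicate 2 was well below DMSO replicates 3 and 4. The single-end means were 1180 ± 24.5 and 476 ± 110 CPM (SD, n = 3 each), 2.48-fold higher, a log2 fold change of 1.31 ± 0.14 (SE; edgeR, Benjamini-Hochberg adjusted p = 4.07e-05).

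MEIS2, a TALE-class homeodomain factor, had the most even single-end DMSO level, with a spread below the counting error of its 1515 to 2024 counts. MEIS2 (ENSG00000134138, chr15:36889204-37101299, minus strand, 27 annotated transcripts) was at 31.7, 67.9, 80.3 and 75.4 CPM in CR31B replicates 1 to 4 and at 77.3, 29.5, 30.0 and 29.5 CPM in DMSO replicates 1 to 4. All single-end CR31B values exceeded all single-end DMSO values, and replicate 1 was reversed. In the single-end libraries the means were 74.5 ± 6.26 and 29.7 ± 0.274 CPM (SD, n = 3 each), 2.52-fold higher, a log2 fold change of 1.33 ± 0.066 (SE; edgeR, Benjamini-Hochberg adjusted p = 7.07e-07).

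ISL1, a LIM-homeodomain factor of sympathetic and sensory neurons, moved least among the members that rose. ISL1 (ENSG00000016082, chr5:51383391-51394738, plus strand, 6 exons in the main transcript) was at 66.0, 92.5, 82.7 and 89.2 CPM in CR31B replicates 1 to 4 and at 78.9, 76.3, 67.9 and 71.2 CPM in DMSO replicates 1 to 4. The single-end groups did not overlap, though the lowest CR31B value and the highest DMSO value were close. Means over the single-end libraries were 88.1 ± 4.97 and 71.8 ± 4.23 CPM (SD, n = 3 each), a log2 fold change of 0.30 ± 0.062 (SE; edgeR, Benjamini-Hochberg adjusted p = 0.00314). Without both replicate 4 libraries it was 0.28 and no longer called (edgeR, Benjamini-Hochberg adjusted p = 0.0553).

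PHOX2A, a paired-type homeodomain factor that specifies noradrenergic neurons and activates the DBH gene, was the only member to fall. PHOX2A (ENSG00000165462, chr11:72239077-72245664, minus strand, 3 exons in the main transcript) stood at 501, 402, 435 and 387 CPM in CR31B replicates 1 to 4 and at 398, 478, 576 and 480 CPM in DMSO replicates 1 to 4. All single-end CR31B libraries were below all single-end DMSO libraries, and replicate 1 had the opposite order. The single-end groups averaged 408 ± 24.7 and 512 ± 56.1 CPM (SD, n = 3 each), a log2 fold change of -0.32 ± 0.078 (SE; edgeR, Benjamini-Hochberg adjusted p = 0.00734).

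**Figure D2:**
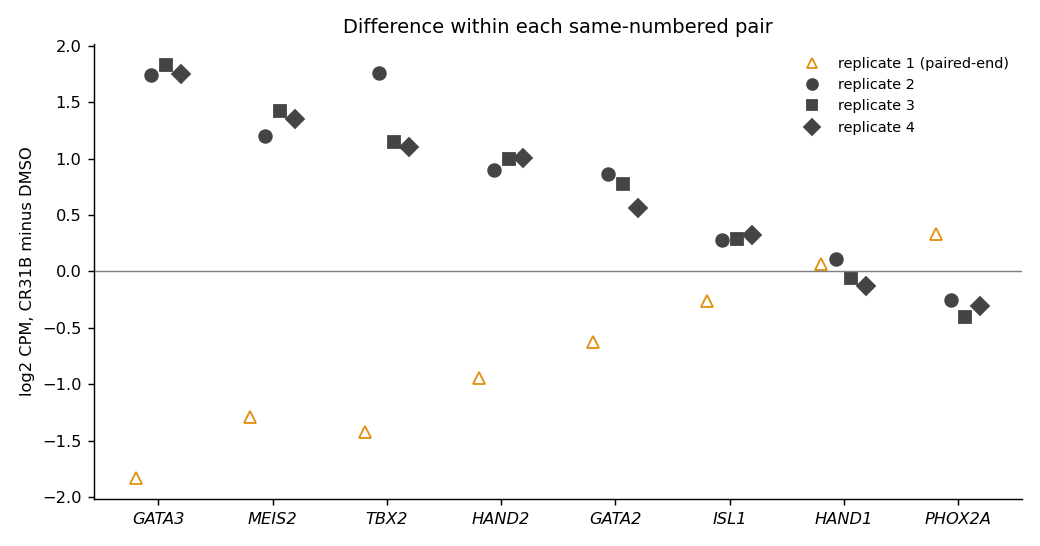
Difference in log2 CPM between the CR31B and the DMSO library of the same replicate number for each factor, with open triangles for the paired-end replicate 1 and filled marks for replicates 2, 3 and 4. GATA3 lies at 1.74, 1.83 and 1.75 in replicates 2 to 4 and at -1.83 in replicate 1, and PHOX2A shows the opposite signs.

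Replicate 1 had 1 library in each group, so its differences carry no test of their own. In it 2 members were higher and 6 lower with CR31B, with a median difference of -0.79 in log2 CPM. Replicates 2, 3 and 4 had 7, 6 and 6 members higher, with medians of 0.88, 0.89 and 0.78. The shares of all genes higher or lower within single pairs were not computed. For HAND1 the difference was 0.06 in replicate 1 and 0.11, -0.06 and -0.13 in replicates 2 to 4, the only member whose single-end pairs differed in sign. A test of whether replicate 1 differed from replicates 2 to 4 passed the threshold for 7 of the 8 members, where 42.5% of all tested genes passed (interaction term in edgeR, Benjamini-Hochberg adjustment). With 1 replicate 1 library in each group, this test assumes that they vary like the single-end libraries, and it restates the reversal seen on the first principal component. The largest such differences were -3.61 for GATA3, -2.73 for TBX2 and -2.62 for MEIS2, and HAND1 did not pass (0.08; edgeR, Benjamini-Hochberg adjusted p = 0.694).

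The replicate 1 libraries can be placed on a scale where 0 is the single-end DMSO mean of a gene and 1 its single-end CR31B mean. On this scale the library labelled DMSO lay at 0.974 for GATA3, 0.963 for HAND2, 1.04 for MEIS2 and 1.11 for PHOX2A, close to the treated mean. For TBX2 it lay at 0.825, for ISL1 at 0.469 and for GATA2 at 0.230. The library labelled CR31B lay between -0.0587 and 0.0765 for GATA3, HAND2, MEIS2 and PHOX2A, near the untreated mean, and at -0.237 for TBX2, -0.402 for ISL1 and -0.626 for GATA2. GATA3, HAND2, MEIS2 and PHOX2A thus sat near the mean of the opposite label in both replicate 1 libraries, and TBX2, ISL1 and GATA2 sat below it in both.

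Levels of different genes were compared as CPM per kilobase of the main transcript in the single-end libraries. With DMSO the order of the mean levels was PHOX2A at 301 ± 32.995, HAND2 at 244 ± 5.97, TBX2 at 143 ± 32.97, GATA3 at 97.7 ± 6.70, HAND1 at 54.3 ± 2.40, ISL1 at 29.2 ± 1.72, GATA2 at 12.2 ± 2.49 and MEIS2 at 6.15 ± 0.0568 (SD, n = 3). No neighbours in that order overlapped across the 3 libraries, although TBX2 and GATA3 nearly met, at 105 for the lowest TBX2 value and 104 for the highest GATA3 value. With CR31B, HAND2 led at 478 ± 29.6, TBX2 followed at 353 ± 7.33 and GATA3 at 334 ± 27.0, and PHOX2A stood at 240 ± 14.5 (SD, n = 3). PHOX2A thus went from rank 1 to rank 4, while HAND1, ISL1, GATA2 and MEIS2 kept the last 4 places. TBX2 and GATA3 overlapped with CR31B (345 to 359 and 303 to 352), and with all annotated exon bases as the length GATA3 took rank 2, PHOX2A rank 3 and TBX2 rank 4.

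Ratios between related genes, chosen after the values had been seen, were next compared. The log2 ratio of HAND2 to HAND1 was 2.85 ± 0.079 with DMSO and 3.84 ± 0.25 with CR31B in the single-end libraries (SD, n = 3). For GATA3 over GATA2 it was 2.68 ± 0.23 and 3.72 ± 0.14. The values of the treatment groups did not overlap for either ratio, the differences were 0.996 and 1.04, and replicate 1 gave -1.01 and -1.20. MEIS1, the closest relative of MEIS2, rose too, from 272 ± 6.26 to 490 ± 11.6 CPM (SD, n = 3), and the log2 ratio of MEIS2 to MEIS1 went from -3.20 ± 0.036 to -2.72 ± 0.090. TBX3, the closest relative of TBX2, rose alongside it: the log2 ratio of TBX2 to TBX3 overlapped between the groups, with a difference of -0.25, which was -0.07 without CR31B replicate 3 and -0.39 without CR31B replicate 2. An exact two-sided permutation test gave p = 0.1 for each of the first 3 ratios, the smallest value that 3 against 3 libraries allow (adjusted over 8 ratios, 0.114), and p = 0.5 for TBX2 over TBX3. The permutation test did not use the pairing by replicate number. Within pairs 2 to 4 the TBX2 to TBX3 difference ran from -0.39 to -0.18, and in replicate 1 it was 0.07.

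Each of 4 members has an antisense neighbour, a noncoding RNA read from the opposite strand at the same locus, and these neighbours had smaller log2 fold changes than the members beside them. Of the 4, 1 was called higher and 0 lower in the single-end libraries, with a median log2 fold change of 0.28. With 23.8% of all tested genes higher and 17.6% lower, this count does not set the neighbours apart. GATA3-AS1 (ENSG00000197308) was at 32.3 ± 1.33 CPM with DMSO and 30.7 ± 3.85 CPM with CR31B (SD, n = 3), a log2 fold change of -0.07 ± 0.087 (SE; edgeR, Benjamini-Hochberg adjusted p = 0.556) whose sign turned with GC and length offsets (0.0038). The log2 ratio of GATA3 to GATA3-AS1 was accordingly 3.003 ± 0.16 with DMSO and 4.86 ± 0.23 with CR31B (SD, n = 3), a difference of 1.85, against -1.99 in replicate 1. HAND2-AS1 (ENSG00000237125) was at 311 ± 30.9 and 376 ± 59.3 CPM (SD, n = 3), with a log2 fold change of 0.27 ± 0.11 (SE; edgeR, Benjamini-Hochberg adjusted p = 0.066). The ratio of HAND2 to HAND2-AS1 differed by 0.70 (log2) between the groups and by -0.73 in replicate 1.

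GATA2-AS1 (ENSG00000244300) passed the threshold at 0.40 ± 0.14 (SE; edgeR, Benjamini-Hochberg adjusted p = 0.042), but was not called after leaving out CR31B replicate 3 or 4 or DMSO replicate 2 or 4 (edgeR, Benjamini-Hochberg adjusted p = 0.112, 0.0928, 0.136 and 0.0796), which left 0 higher. Upper quartile scaling also ended its call (edgeR, Benjamini-Hochberg adjusted p = 0.12). TBX2-AS1 (ENSG00000267280) did not pass, at 0.30 ± 0.16 (SE; edgeR, Benjamini-Hochberg adjusted p = 0.158). With the replicate number as a block, HAND2-AS1 and TBX2-AS1 were also called (edgeR, Benjamini-Hochberg adjusted p = 0.000498 and 0.0126), which made 3 of the 4, and leaving out CR31B replicate 2 alone brought HAND2-AS1 to 0.39 (edgeR, Benjamini-Hochberg adjusted p = 0.00631). Over all 8 libraries 0 of the 4 were called. The ratios of GATA2 and TBX2 to their neighbours differed by 0.33 and 1.054 (log2), with an exact permutation p of 0.1 for each of the 4 ratios to a neighbour.

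**Figure D3:**
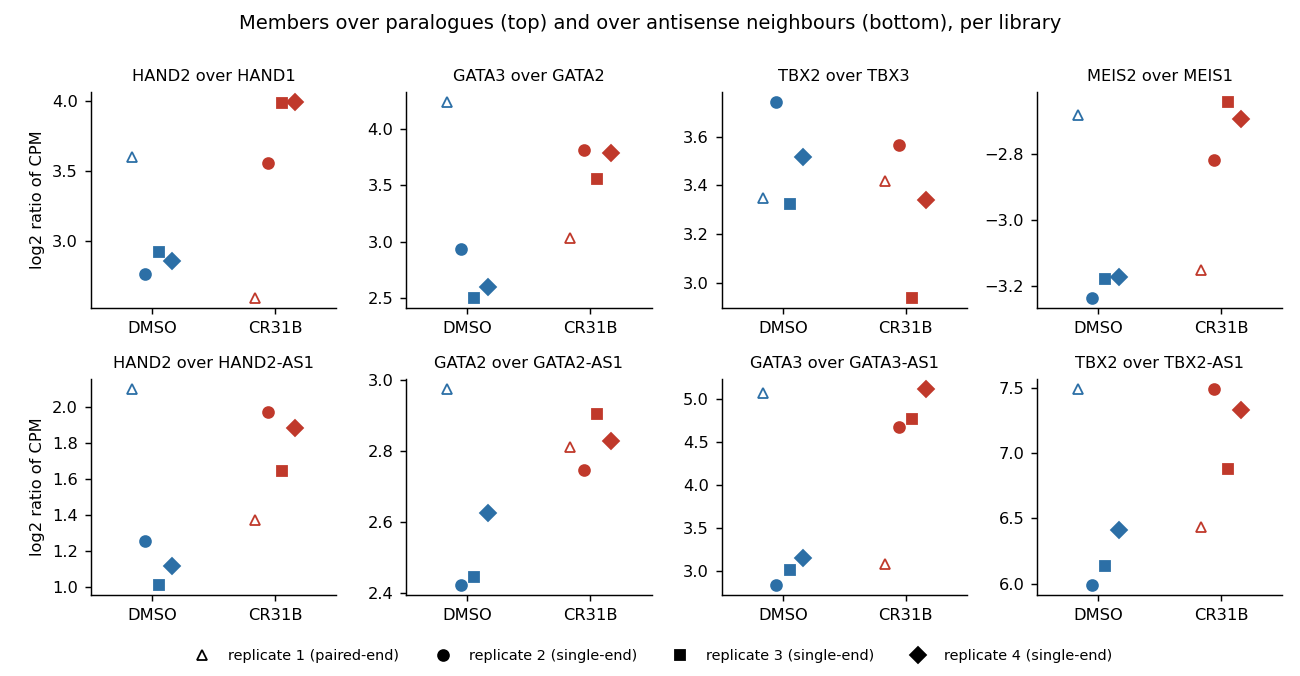
Ratio of each member to a related gene or to its antisense neighbour in each library (log2 ratio of CPM, DMSO in blue and CR31B in red, each panel on its own scale), with open marks for replicate 1 and filled marks for replicates 2 to 4. The filled CR31B and DMSO marks separate for 7 of the 8 ratios, TBX2 over TBX3 being the exception. The ratio of GATA3 to GATA3-AS1 shows the widest gap, 1.85. The ratios were chosen after the values had been seen, and the share of other gene pairs that separate was not computed.

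More of the other transcription factors of the adrenergic state rose than fell. Of 17 such genes 16 were tested, 9 rose and 1 fell in the single-end libraries, with a median log2 fold change of 0.55. For this list and the next, the shares among all tested genes were 23.8% higher and 17.6% lower. TBX3 (1.54 ± 0.22), the Notch target HEY1 (1.45 ± 0.14) and SOX11 (0.66 ± 0.070), a neural SOX factor, rose, and PBX3, a TALE homeodomain partner, fell by 0.31 (log2; SE). With the replicate block 3 of these genes fell. Among 14 proteins that bind the members, 9 rose and 2 fell, with a median of 0.38. ZFPM2, a GATA cofactor, rose by 0.77 and LDB1, the adaptor of LIM-homeodomain factors, by 0.64 (log2). TCF3, an E protein, was at -0.29, and LDB2, a relative of LDB1, at -0.33. LDB2 lost its call without CR31B replicate 2, CR31B replicate 4, DMSO replicate 3 or DMSO replicate 4 (edgeR, Benjamini-Hochberg adjusted p = 0.0611, 0.0522, 0.0566 and 0.0679), which left 1 lower, and both lost theirs without the replicate 4 pair.

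Of 12 paralogues of the members 6 had enough counts to be tested, 3 rose and 1 was called lower, with a median of 0.39. The shares of all tested genes were 23.8% higher and 17.6% lower. MEIS1 rose by 0.85 ± 0.048, ISL2 by 0.53 and MEIS3 by 0.28 (log2; SE). TBX1, at -0.17, stood at the threshold (edgeR, Benjamini-Hochberg adjusted p = 0.0451) and was not called without CR31B replicate 3 or 4 or DMSO replicate 2 or 4 (edgeR, Benjamini-Hochberg adjusted p = 0.112, 0.0691, 0.112 and 0.148), which left 0 lower.

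These factors are known for controlling noradrenaline genes. Of 12 genes of the catecholamine pathway and its granules 10 were tested, 2 rose, 3 fell and the median was 0.03. Among all tested genes 23.8% rose and 17.6% fell, so counts of this size do not set the list apart. DBH, the enzyme that makes noradrenaline and a known target of PHOX2A, fell from 271 ± 67.0 to 137 ± 42.3 CPM (SD, n = 3), a log2 fold change of -0.98 ± 0.21 (SE; edgeR, Benjamini-Hochberg adjusted p = 0.00402), against 0.95 in replicate 1. PHOX2A fell in the same libraries, whereas GATA3 and HAND2 rose, and the part of any member in the fall of DBH was not tested. CHGA, the granule protein chromogranin A, fell by 0.38, and SLC6A2, the noradrenaline transporter, was at -0.30 with a call that was lost without DMSO replicate 3 or 4 (edgeR, Benjamini-Hochberg adjusted p = 0.0506 and 0.0505). SCG2, the granule protein secretogranin II, rose by 0.97, and MAOA, which breaks catecholamines down, by 0.65 (log2), the latter not called without the replicate 4 pair (edgeR, Benjamini-Hochberg adjusted p = 0.0882), which left 1 higher. With the replicate block 4 of these genes rose.

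Of 12 neuronal differentiation genes, all tested, 1 rose, 5 fell and the median was -0.11 (all tested genes: 23.8% higher, 17.6% lower). STMN2, a regulator of growth cone microtubules, fell by 0.81, the neurofilament NEFM by 0.55 and the ubiquitin hydrolase UCHL1 by 0.40 (log2). ELAVL4, a neuronal RNA-binding protein, was at 0.28 and lost its call with upper quartile scaling and without the replicate 4 pair (edgeR, Benjamini-Hochberg adjusted p = 0.0535 and 0.0696). The number higher was 3 with the replicate block and 2 without CR31B replicate 2 or DMSO replicate 3.

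Of 20 transcription factors of the opposite, mesenchymal state 13 were tested, 8 rose, 0 fell and the median was 0.74 (all tested genes: 23.8% higher, 17.6% lower). FOSL2, an AP-1 subunit, rose by 1.66 ± 0.087, TBX18, a T-box factor, by 1.55, and SOX9, a neural crest SOX factor, by 1.504 (log2; SE). TWIST1, with a mean of 159 CPM over all 8 libraries, was at 0.00079 (log2) and not called. PRRX1, RUNX2 and TWIST2 of the same list were at 0 in every library. In replicate 1 the difference ran the other way for FOSL2 (-1.66), as it did for TBX3 (-1.49) and STMN2 (1.03) of the lists above. Of the 7 fibroblast markers 6 were tested, 2 rose, PDGFRA by 1.19 and PDGFRB by 0.38 (log2), and 0 fell. Beside the 23.8% and 17.6% of all tested genes, these counts do not set the markers apart. The other 4 were not called, among them COL1A1 at 0.07 and COL3A1 at -0.76, and the median of the 6 was -0.09. Over all 8 libraries none of the 7 lists had a called gene. These lists were chosen with earlier results of these data known.

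**Figure D4:**
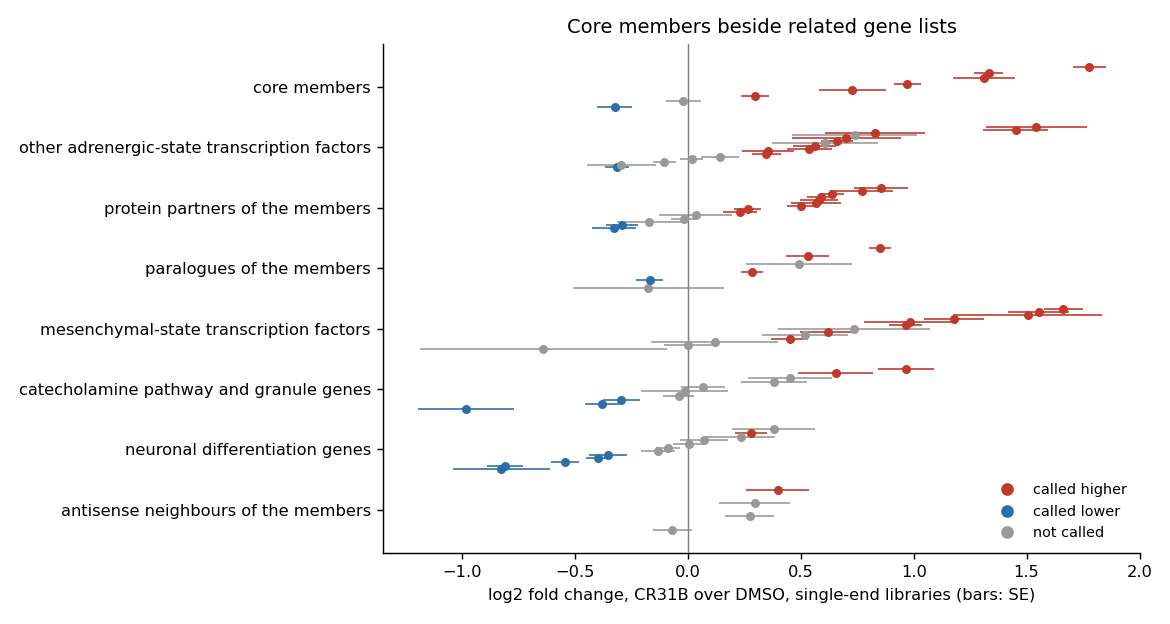
Log2 fold change of each tested gene in the single-end libraries (CR31B against DMSO), by gene list, with 1 point per gene, horizontal bars for its SE, red for genes called higher, blue for called lower and grey for not called. Among these lists the members (median 0.85) and the mesenchymal-state factors (0.74) lie farthest to the right, and the neuronal differentiation genes (-0.11) farthest to the left.

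The members' profiles over the 8 libraries were compared with those of 10797 other genes by Pearson's r of log2 CPM, as a description over libraries that share the treatment and the replicate 1 order. The closest profiles were FEM1B and CAMSAP2 for HAND2 (r = 0.9998 and 0.9996), TWNK and CDK12 for GATA3 (both 0.999), and BCOR and IRS1 for MEIS2 (0.9997 and 0.9991). For TBX2 they were PGF (0.996) and SRSF12 (0.995), for GATA2 RHOBTB3 (0.995) and SYNDIG1 (0.992), and for ISL1 SIAH1 and UBAP1 (both 0.984). PHOX2A was closest to CLIC1 (0.993) and LINC00205 (0.984), and HAND1 to TWIST1 (0.977) and CCDC92B (0.972). GATA3, HAND2 and MEIS2 were nearly indistinguishable in shape, whereas PHOX2A ran against the members that rose, with r from -0.87 to -0.52.

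The members' main transcripts differed in length and base composition. Their 5′ untranslated regions had a median length of 306.5 bases, against 210 over 12736 tested coding genes, with HAND2 at 940 bases, longer than 96.8% of those genes, and PHOX2A at 172. GC content of the main transcript ran from 40.4% in MEIS2 to 66.6% in TBX2, with a median of 57.9% against 49.0% over the same genes. TBX2 and MEIS2, at the ends of that range, had log2 fold changes of 1.31 and 1.33, and PHOX2A, at 66.5%, had -0.32. A relation of the change to length or base composition was not tested.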

How the data were processed

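RNA from 8 IMR32 libraries was analysed from the raw counts per Ensembl gene that the authors deposited, with no normalisation applied. Per the submitters' processing notes the genome build was GRCh38 and the tools were FastQC 0.11.7, STAR 2.7.2b, edgeR 3.36.0 and limma 3.50.3, with no role or order stated. The counting tool and the annotation are not given in the sources used here. The strand setting is not stated either, although the name of the deposited table holds the word reverse. The libraries carry no molecular identifiers that the labels describe, so depth covers counting error only. Columns were matched to libraries by name, although 1 header (CR31B replicate 4) reads MR32 for IMR32. Positions are from GENCODE release 29, which held 58515 of the 58787 identifiers, and upstream sequences are from RefSeq.

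The test was the two-sided quasi-likelihood test of edgeR 4.0.16 (R 4.3.3), run after filterByExpr and TMM, with Benjamini-Hochberg adjustment over all tested genes and a threshold of 0.05, in a fit of all 8 libraries with a term for sequencing layout, in a fit of the 6 single-end libraries, and in a fit with the interaction of treatment and layout. Levels are TMM-scaled CPM, and log2 CPM used a prior count of 1. The fits were also run on simulated counts with few changed genes and no reversed pair, a setting unlike these data. Deviations of same-numbered single-end libraries from their group means correlated at 0.206, 0.384 and 0.157 in replicates 2, 3 and 4, so the numbers were taken to pair these libraries. The main fits and the permutation tests have no pair term, so their SE and p-values ignore this pairing. It enters only in the replicate block and in the differences by pair. The alternatives were RLE, upper quartile and total count scaling, filters of at least 1 count and of a mean of at least 1 CPM, DESeq2 1.42.0, limma 3.58.1 (voom), a replicate block, GC and length offsets, no layout term, and leaving out libraries or pairs. The members, the lists and the ratios were chosen with earlier results of these data known. Genes named besides the members were up to 3 called genes per list and direction with the largest change and at least 5 CPM, the 4 antisense neighbours, and the 2 closest profiles per member. Marker genes named are from the marker lists, and PRRX1, RUNX2 and TWIST2 are named for having no counts. Of the genes this rule picks, 1 is not reported here.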

Additional observations from a re-analysis of the deposited data

Results flagged for a closer look

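In a group of 4 libraries, a library was singled out where its gap to the nearest other library, divided by the range of the group on the log2 CPM scale, exceeded 0.829 (Dixon's value for 4 samples). Of 16 groups, 8 members by 2 treatments, 7 exceeded it, where chance alone gives about 0.8. The share of all tested genes beyond this value was not computed, so the number does not set the members apart. The groups share the same 8 libraries, and some members correlate closely (r = 0.999 for GATA3 and HAND2). The 7 are therefore not separate events, and their number cannot be weighed against chance. In 6 of the 7 the distant library was replicate 1. The gap was 0.835 of the range for HAND2 with CR31B and 0.927 with DMSO, 0.891 for GATA3 with CR31B and 0.892 with DMSO, 0.967 for TBX2 with CR31B and 0.983 for MEIS2 with DMSO. In the remaining group, GATA2 with DMSO, the distant library was replicate 2, at 31.3 CPM against 45.3, 46.2 and 45.3 CPM, with a gap of 0.946.

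The difference between CR31B and DMSO in replicate 1 differed from that in replicates 2 to 4 for 7 members by an interaction term (edgeR, Benjamini-Hochberg adjusted). The same term passed for 42.5% of all tested genes, so the reversal is not particular to the members. Replicate 1 has 1 library in each group, so the spread comes from the single-end libraries and is assumed to hold for it, and the reversal was already visible on the first principal component. The log2 difference of differences was -3.61 for GATA3 (adjusted p = 5.85e-07), -2.73 for TBX2 (adjusted p = 3.5e-05), -2.62 for MEIS2 (adjusted p = 8.25e-07) and -1.92 for HAND2 (adjusted p = 1.93e-06), all in edgeR. It was -1.36 for GATA2, -0.55 for ISL1 and 0.66 for PHOX2A (edgeR, Benjamini-Hochberg adjusted p = 0.00489, 0.00482 and 0.00699). Replicate 1 is also the only paired-end pair, so layout, replicate and an exchange of the 2 labels cannot be told apart.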

How the results depend on the processing

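Over all 8 libraries the number of called genes was 0 as labelled and under every alternative that kept both replicate 1 libraries. It was 6920 without CR31B replicate 1, 6906 without DMSO replicate 1 and 6901 with the 6 single-end libraries alone, a leave-one-out range of 0 to 6920. Members called higher went from 0 to 6 and members called lower from 0 to 1 in those 3 fits. In the single-end libraries the number of called genes ran from 3981 (without the replicate 4 pair) to 6727 when a library or pair was left out. There 6 members stayed higher and 1 lower, except that ISL1 left the count, at 5, without the replicate 4 pair. The direction of the calls depended on scaling: 3968 higher and 2933 lower with TMM became 3010 and 4509 with upper quartile scaling and 3181 and 4194 with total counts, while no member changed its call. The replicate block gave 0 calls over all 8 libraries and 8540 in the single-end libraries, and it changed the call of no named gene except HAND2-AS1 and TBX2-AS1. List counts that it moved by over 1.5 times are given above, and it moved 3 others less: higher calls went from 9 to 12 (other adrenergic-state factors), from 8 to 9 (mesenchymal-state factors) and from 3 to 4 (paralogues).

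Direction was unstable for HAND1, at 0.046 with GC and length offsets, 0.043 with these and the replicate block, 0.0012 without the layout term and -0.067 to 0.041 with a library left out, over all 8 libraries. In the single-end libraries HAND1 was at 0.083, 0.079 with the block, and -0.12 to 0.035 with a library or pair left out. GATA3-AS1 was at 0.0038, 0.00079 with the block, and -0.16 to 0.025. The causes were not tested. The lowest count of a member was 1515.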
